A study of Mus musculus with 8 samples.

Results

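The 10 receptor genes of myeloid and inflammatory cytokines described here were measured in single hematopoietic stem cells (HSCs) of the mouse. They are *Csf2ra*, *Csf2rb*, *Csf2rb2*, *Csf3r*, *Il1r1*, *Il6st*, *Ifngr1*, *Ifnar1*, *Ifnar2* and *Tnfrsf1a*. They were chosen by name, as receptors of these cytokine families, with earlier results of these data known. *Il1r1* was picked because its rise was among the largest in these same cells. The difference in *Il1r1* is therefore a description of how it was selected, and the ratios of the other 9 are given as descriptions too. All 10 are in the expression table, which holds 10720 genes.

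RNA was measured in adult bone marrow HSCs of C57BL/6 mice, sorted as LSK cells that were CD150+, CD34- and CD48- and then picked by hand. Cells labelled KO came from Mx1-cre+ *Med23* L/L mice, in which poly(I:C) switches on the Cre recombinase that removes *Med23*, a subunit of the Mediator complex through which transcription factors reach RNA polymerase. Cells labelled WT came, by the study's methods, from Mx1-cre- littermates with the same *Med23* L/L alleles. The labels list 4 WT and 4 KO libraries, but the table names each cell only by its genotype, so that each genotype is 1 pool of cells here. The Mx1 promoter responds to interferon and acts outside blood cells as well, and poly(I:C) itself induces interferon. Whether the WT mice of these libraries were injected, the time from injection to sorting and the number of mice per library are not given in the sources used here. The presence of Cre and the loss of *Med23* cannot be told apart in this design, and neither can genotype and library.

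Cytokine receptors of these families signal as complexes of chains when their ligand is bound. The GM-CSF and IL-3 receptors pair a ligand-specific alpha chain with a shared beta chain, the G-CSF receptor pairs with itself, and gp130, the product of *Il6st*, is shared by IL-6 and its relatives. These chains and the interferon receptors signal through JAK kinases and STAT factors, while the IL-1 and TNF receptors signal through adaptors to NF-kB. In HSCs, G-CSF, GM-CSF and IL-1 are known for driving myeloid output, and interferons and TNF for acting on stem cells during infection.

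Of 586 cells in the table, 493 passed 2000 detected genes and 20000 UMIs (unique molecular identifiers, 1 per captured transcript), 259 labelled WT and 234 labelled KO. The methods give the same limits for all deposited cells, and 93 lay under them within the genes listed. Median depth was 59649 UMIs in WT and 50281 in KO cells. *Med23* had 122 UMIs in WT and 117 in KO cells, or 5.68 and 7.23 per 1000000 UMIs (CPM). Its log2 ratio of KO over WT, 0.35, had a counting interval (-0.03 to 0.73) that spanned 0. Those UMIs came from 47 WT and 27 KO cells, and 1 KO cell held 28 of the 117. The direction depended on the setting. The ratio was -0.40 at limits of 3000 genes and 30000 UMIs and -0.13 with the authors' normalized values. In cells of 20000 to 40000, 40000 to 80000 and above 80000 UMIs it was -0.73, 1.66 and -1.34. Under the other ways of processing it was from 0.10 to 0.45. The UMIs are 3' tags, and since the removed exons are not given in the sources used here, the tags do not check the deletion. All 15 HSC markers chosen for a check of the cell type were detected, with a median log2 ratio of KO over WT of -0.10 and a median summed level of 2145 CPM per WT cell and 1939 CPM per KO cell. *Slamf1* (-2.26) and *Esam* (-1.39) were at least 2-fold lower in KO and *Mecom* (1.14) higher. The counting interval of the ratio lay below 1 for 8 of the 15 and above 1 for 3 (35.7% and 39.2% of all genes). *Hoxb5* (-0.72), *Hlf* (-0.68), *Ly6a* (-0.53) and *Kit* (-0.45) were among the 8, and *Meis1* (0.59) was among the 3. *Cd34*, the transcript of a protein the sort excluded, was at 178 CPM in WT and 304 CPM in KO cells. *Cd48*, that of another excluded protein, did not rise, with 146 UMIs in WT and 85 in KO cells. Its log2 ratio was -0.37, with a counting interval (-0.78 to 0.02) that spanned 0. The table held 3 of 14 monocyte and macrophage markers and 4 of 14 neutrophil markers. Their summed levels ran from 0 to 1833 and from 0 to 1472 CPM in WT and KO cells for the first list, and from 0 to 1698 and from 0 to 2023 CPM for the second. In the neutrophil list only *Prtn3*, a protease of granulocyte precursors, was higher in KO (log2 ratio 1.69). *S100a8* of mature neutrophils (-1.09), *Cxcr2* (-0.99) and *S100a9* (-0.90) were lower. In the first list *C1qa*, a complement gene of macrophages, was higher (2.15), as were *Cd68* (0.79) and, slightly, *Lyz2* (0.19). *C1qa* had 31 UMIs in 8 WT cells and 104 in 11 KO cells, of which 1 KO cell held 36. Markers of oocytes were present in the WT pool. Their summed level passed 1000 CPM in 51 WT and 2 KO cells, and 13 of 14 were at least 2-fold lower in KO. The table held 6 of 10 stroma and endothelium markers, with summed levels from 0 to 1323 CPM in WT and from 0 to 1031 CPM in KO cells. Among them *Col1a1* (345 WT and 4 KO UMIs, log2 ratio -6.02) and *Col1a2* (-4.27), collagens of stroma, were lower in KO and *Pecam1* (1.45), of endothelium and stem cells, was higher. Of the 2 mast cell and basophil lineage markers in the table *Gata1* was lower (-1.49) and *Cpa3* higher (1.21). The part of these marker genes in the results was not tested, and values without the oocyte-marker cells are given for some of the genes.

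The sequences at the 2 start sites of *Il1r1* are shown because this gene had by far the largest ratio of the 10. Each line runs from 250 bases before to 50 bases after a start, from RefSeq on GRCm38.p6, plus strand of chromosome 1. Site 1 lies at chr1:40224830-40225129 and site 2 at chr1:40266336-40266635. Capitals mark a match to TTGCNNAA, the core bound by C/EBP factors, which drive myeloid genes, in site 1, and a match to the NF-kB consensus in site 2.
Il1r1 site 1: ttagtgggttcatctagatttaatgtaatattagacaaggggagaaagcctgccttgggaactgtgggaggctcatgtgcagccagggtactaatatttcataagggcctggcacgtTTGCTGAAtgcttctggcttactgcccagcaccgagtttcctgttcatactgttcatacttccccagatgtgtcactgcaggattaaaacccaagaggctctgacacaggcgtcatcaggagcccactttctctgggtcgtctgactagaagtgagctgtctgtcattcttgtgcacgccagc
Il1r1 site 2: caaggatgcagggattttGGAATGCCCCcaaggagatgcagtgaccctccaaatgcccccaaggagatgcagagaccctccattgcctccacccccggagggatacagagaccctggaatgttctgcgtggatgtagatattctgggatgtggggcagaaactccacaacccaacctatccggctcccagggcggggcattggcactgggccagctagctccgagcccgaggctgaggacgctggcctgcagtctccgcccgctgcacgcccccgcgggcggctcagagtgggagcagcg
The C/EBP core begins 133 bases before the first start and the NF-kB match 232 bases before the second. Both strands were searched, no 2 matches overlapped, and among 32851 mouse promoters of the same length 10.8% held the C/EBP core and 8.46% the NF-kB consensus.

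Promoters of 9 of the 10 genes, 10 in all, were found by symbol, with none for *Csf2rb*. TTCNNNGAA, the element bound by STAT factors (GAS), was in 8.30% of all promoters and in 4 of the 9 genes, which are shown with up to 10 bases on each side and the match in capitals, since most of the 10 receptors signal through STATs. They lie within the windows chr15:78305672-78305971 (minus strand), chr16:91484965-91485264, chr16:91372533-91372832 and chr6:125349473-125349772 (plus strand), in the order shown.
Csf2rb2: gtgtccacaaTTCTGAGAAgcaagcaaag
Ifnar1: ggcgggggcgTTCACGGAAggggcggggc
Ifnar2: tgccaaggccTTCCTGGAAgaagagagta
Tnfrsf1a: gcttccTTCCGTGAAattgacaaca
The matches begin 15, 5, 214 and 244 bases before the start, in that order. GAAANNGAAA, the interferon-stimulated response element, was in none of the 10 promoters and in 3.44% of all. GAGGAAGT, bound by ETS factors such as PU.1, was in that of *Csf2rb2* and in 3.20% of all, and an NF-kB match was in that of *Csf3r*. These are matches of letters and not measured sites.

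As a group, the receptors were higher in the cells labelled KO. Their summed level was 408 CPM in WT and 628 CPM in KO cells, and their median log2 ratio was 0.65, against 0.02 over all genes in the table. By bins of cell depth, from shallow to deep, that median was 0.77, 0.27 and 0.85. At least 2-fold higher were 2 of the 10, *Il1r1* and *Csf2rb*, where 6.98% of all genes were, and none was 2-fold lower, where 7.94% of all genes were. The 95% counting interval of the ratio lay above 1 for 9 of the 10 (39.2% of all genes) and below 1 for none (35.7% of all genes). Only *Csf2ra*, with a log2 ratio of -0.00, had an interval spanning 1. *Il1r1*, picked for its rise in these same cells, is in these sums and counts, with 1.49 CPM in WT and 19.1 CPM in KO cells. Without *Il1r1* the median was again 0.65, and of the other 9 only *Csf2rb* passed 2-fold. These 9 too were chosen with earlier results of these data known. With 1 pool per genotype there is no replicate check, so no test between the genotypes is given. The intervals cover counting error only, and since UMIs of a gene gather in few cells they are narrower than the spread between cells would give.

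**Figure D1:**
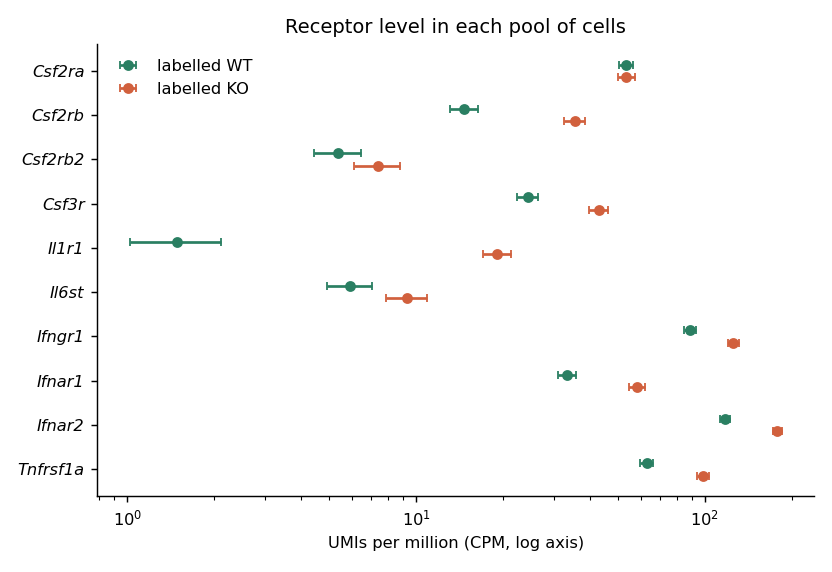
Level of each receptor in CPM (log axis) in the 259 cells labelled WT and the 234 labelled KO, with bars for 95% Poisson counting intervals. *Il1r1* is the lowest of the 10 in WT at 1.49 CPM and stands at 19.1 CPM in KO, while the 2 points of *Csf2ra* coincide at 53.4 CPM.

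The order of the levels was nearly the same in both pools. CPM of 3'-tagged molecules needs no correction for gene length, but capture can differ between genes. *Ifnar2*, the chain of the type I interferon receptor that binds interferon most tightly, was highest, at 118 CPM in WT and 178 CPM in KO cells, followed by *Ifngr1*, the ligand-binding chain for interferon gamma, at 88.8 and 126 CPM. *Tnfrsf1a*, the main receptor for TNF, came next at 62.8 and 98.7 CPM. *Csf2ra* was the fourth in WT cells, and in KO cells *Ifnar1*, the other chain of the type I receptor, stood above it with an overlapping interval (54.4 to 61.9 against 49.9 to 57.1 CPM). *Il1r1* was last in WT cells and above *Il6st* and *Csf2rb2* in KO cells. At the lower end the counting intervals of *Csf2rb2* (4.42 to 6.43 CPM) and *Il6st* (4.93 to 7.04 CPM) overlapped in WT cells, and so did those in KO cells (6.09 to 8.80 and 7.85 to 10.9 CPM). In KO cells *Csf2rb* (32.6 to 38.4 CPM) and *Csf3r* (39.8 to 46.2 CPM) did not overlap.

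*Il1r1* encodes the signalling receptor for IL-1. It had 32 UMIs in the WT and 309 in the KO cells, a log2 ratio of 3.68 (counting interval 3.15 to 4.25) and the place 16 of 10720 genes ordered by ratio. The UMIs came from 10 of 259 WT cells and 46 of 234 KO cells. A single UMI was seen in 6 of the WT and 19 of the KO cells, and 6 or more in 2 WT and 19 KO cells. The highest WT cell had 14 UMIs and the highest KO cell 71, or 23.0% of all KO UMIs. The cell ranges overlapped, since most cells of both pools had none. With each cell thinned to 20000 UMIs, a UMI was found in 1.16% of WT cells (3 cells, exact binomial interval 0.240 to 3.35%) and in 15.0% of KO cells (35 cells, 10.6 to 20.2%). These intervals, like those of all shares of cells given here, cover counting of cells within 1 pool and not differences between mice or libraries. Without the top cell of each pool 18 and 238 UMIs remained and the log2 ratio was 4.13.

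The *Il1r1* difference was not the same at every depth. Among cells of 20000 to 40000 UMIs the counts were 7 in 83 WT and 18 in 90 KO cells, a log2 ratio of 1.28 whose interval (-0.05 to 2.78) spanned 0. From 40000 to 80000 UMIs they were 2 in 75 WT and 143 in 84 KO cells, a log2 ratio of 5.41 with the WT count set to a floor of 3 (interval from the counts 4.12 to 9.06). Above 80000 UMIs, 23 and 148 UMIs gave 3.43. *Il1rap*, the accessory chain that IL-1 needs beside *Il1r1*, had a log2 ratio of -0.61 (interval -0.97 to -0.25), which depended on the setting. Of its 200 WT UMIs 43 came from 1 cell, and the ratio was -0.44 without the top cell of each pool. In the deposited normalization less its median over all genes it was -0.16. *Il1rap* was found at 20000 UMIs in 8.11% of WT and 7.69% of KO cells. Both chains were seen together at 20000 UMIs in 0 of 259 WT cells and 1 of 234 KO cells, where the product of their shares would give 0.243 and 2.69 cells.

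The 35 KO cells with *Il1r1* at 20000 UMIs were set beside the other 199 for 10 genes. Their median depth before thinning was 48720 UMIs against 50547. *Tyrobp*, an adaptor of myeloid receptors, was found in 60.0% of them and in 41.7% of the others, and *Csf3r* in 37.1% against 25.6%. *Slamf1*, which encodes the CD150 of the sort, had a UMI in 0 of 35, which by a floor of 3 counts allows up to 8.57% of cells with a UMI, and in 8.04% of the others. *Irf8*, a factor of monocyte and dendritic cell precursors, was found in 14.3% of the cells with *Il1r1* and 25.1% of the others. The exact intervals of all 4 overlapped between the groups, and the differences were not tested. *Csf2rb* (17.1% in each), *Itgam* (17.1% and 18.6%), *Prtn3* (65.7% and 65.8%), *Ifngr1* (62.9% and 64.8%), *Ifnar2* (65.7% and 66.3%) and *Tnfrsf1a* (57.1% and 57.8%) differed by less than 2 percentage points.

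**Figure D2:**
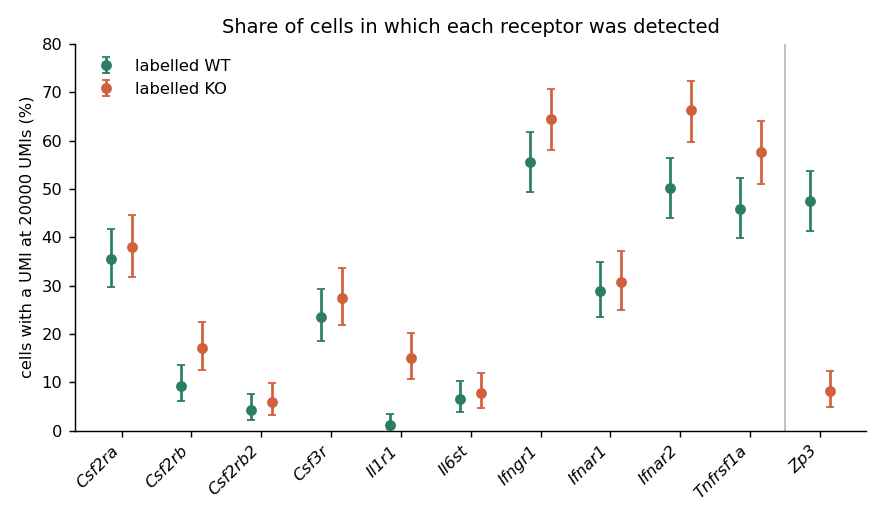
Share of cells (%) with at least 1 UMI of each receptor, with every cell thinned to 20000 UMIs. Bars are exact 95% binomial intervals for 259 WT and 234 KO cells. On the right is the oocyte gene *Zp3*, which HSCs should lack. *Il1r1* is at 1.16% and 15.0% and *Ifnar2* at 50.2% and 66.2% of WT and KO cells, and the intervals cover counting within 1 pool of cells only.

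The myeloid growth factor receptors differed in their ratios. *Csf2ra*, the GM-CSF-specific alpha chain, had 1147 UMIs in WT and 864 in KO cells, which is 53.4 CPM in both. It was found at 20000 UMIs in 35.5% of WT and 38.0% of KO cells. Its ratio depended on cell depth, with log2 values of 0.82, 0.33 and -0.34 from the shallowest to the deepest bin, and it was 0.31 when cells were thinned and -0.21 without the cells rich in oocyte markers.

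*Csf2rb*, the beta chain shared by the GM-CSF, IL-3 and IL-5 receptors, had 315 UMIs in WT and 573 in KO cells, or 14.7 and 35.4 CPM, a log2 ratio of 1.27 (1.07 to 1.47). It was detected in 35 WT and 68 KO cells, and at 20000 UMIs in 9.27% (6.03 to 13.5%) and 17.1% (12.5 to 22.5%). The direction turned in 1 of 3 depth bins. It was 1.79 from 20000 to 40000 UMIs, -0.80 from 40000 to 80000 UMIs (98 WT and 63 KO UMIs, interval -1.28 to -0.33) and 1.78 above. The UMIs were gathered in few cells, and the 10 richest cells held 73.3% of them in WT and 63.4% in KO. *Il3ra*, the alpha chain for IL-3, was also higher in KO (1.44), while cells with both *Il3ra* and *Csf2rb* were few, 4 of 259 in WT and 6 of 234 in KO.

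*Csf2rb2*, the mouse beta chain that serves IL-3 alone, lies beside *Csf2rb* on chromosome 15. It had 115 UMIs in WT and 119 in KO cells, a log2 ratio of 0.46 (0.08 to 0.84). Without the oocyte-marker cells the ratio was 0.20. The longest coding transcripts of the 2 genes (GENCODE M21) were identical at 90.5% of 4687 aligned bases, with a shared run of 242 bases, and their last 500 bases at 82.7% with a shared run of 36. How reads were divided between them is not given in the sources used here, so the split between the 2 genes is uncertain. *Csf2ra* and *Csf2rb* were found in the same cell in 3.47% of WT and 6.84% of KO cells, where the products of their shares were 3.29% and 6.50%.

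*Csf3r*, the G-CSF receptor of the neutrophil lineage, had 523 UMIs in WT and 694 in KO cells, or 24.4 and 42.9 CPM, a log2 ratio of 0.82 (0.65 to 0.98). The ratio was positive in all 3 depth bins, from 0.51 to 1.24. The share of cells at 20000 UMIs differed little, at 23.6% and 27.4%. The top KO cell had 92 UMIs, 13.3% of the total. The ratio was 0.44 in thinned cells and 0.59 without the oocyte-marker cells.

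The 3 interferon receptor chains, of which *Ifnar2* and *Ifngr1* had the highest levels of the set, were each higher in KO cells. *Ifnar2* had 2527 UMIs in WT and 2882 in KO cells, and its log2 ratio was 0.60 (0.52 to 0.68). It was found at 20000 UMIs in 50.2% of WT (43.9 to 56.4%) and 66.2% of KO cells (59.8 to 72.3%). Without the oocyte-marker cells the WT share was 52.4% (45.4 to 59.4%) and the log2 ratio 0.51. In the WT pool 17.3% of its UMIs came from those 51 cells. Over all genes they held a larger share, 4504462 of 21475782 UMIs.

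*Ifnar1* had 717 UMIs in WT and 940 in KO cells, and its log2 ratio was 0.80 (0.66 to 0.94), yet it was found in nearly the same share of cells, 29.0% of WT and 30.8% of KO. Cells with many UMIs differed more. More than 20 were seen in 8 WT and 15 KO cells, and the 10 richest KO cells held 52.2% of the KO UMIs. The ratio was -0.16 in the shallowest bin (interval -0.51 to 0.20) and 1.17 and 0.93 in the others. In thinned cells it was 0.36, and from means over cells of CPM 0.36, both under the interval of the summed counts. Both type I chains were found together in 16.2% of WT and 20.5% of KO cells, against products of 14.5% and 20.4%.

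For *Ifngr1* 1907 UMIs in WT and 2032 in KO cells gave 0.50 on the log2 scale (0.41 to 0.59), with 55.6% of WT and 64.5% of KO cells positive at 20000 UMIs. In the middle depth bin its ratio was 0.02 (-0.17 to 0.21). Its partner chain *Ifngr2* had a ratio of 0.23, and both were found together in 11.2% and 13.2% of cells, against products of 10.9% and 12.4%.

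*Tnfrsf1a* was counted 1349 times in WT and 1597 times in KO cells, a log2 ratio of 0.65 (0.55 to 0.76), with 45.9% (39.8 to 52.2%) of WT and 57.7% (51.1 to 64.1%) of KO cells positive. Without the oocyte-marker cells the WT share was 50.5% and the ratio 0.48. *Tnfrsf1b*, the other TNF receptor, had a log2 ratio of 0.74. *Il6st* was sparse, with 127 UMIs in WT and 150 in KO cells, a log2 ratio of 0.65 (0.30 to 1.0) and 6.56% of WT and 7.69% of KO cells positive. Its ligand-specific partner *Il6ra* was lower in KO, at -1.65, and 2 cells of each pool had both.

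The oocyte gene *Zp3*, which HSCs should lack, was set beside the receptors, and free RNA was not measured. *Zp3* was at 394 CPM in WT and 7.17 CPM in KO cells, and 1 WT cell held 2134 of its 8457 WT UMIs. The receptors lay from 1.49 to 118 CPM in WT and from 7.35 to 178 CPM in KO cells. Since the level of *Zp3* differed from most of theirs, its share is no measure of background for them. At 20000 UMIs *Zp3* was found in 47.5% of WT and 8.12% of KO cells, at median depths of 59649 and 50281 UMIs, and in 40.4% of WT cells without the oocyte-marker cells. In the WT pool only *Ifngr1* and *Ifnar2* exceeded the first share, and in the KO pool *Csf2rb2* and *Il6st* were below theirs. No share of cells given here is read as a share of expressing cells.

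**Figure D3:**
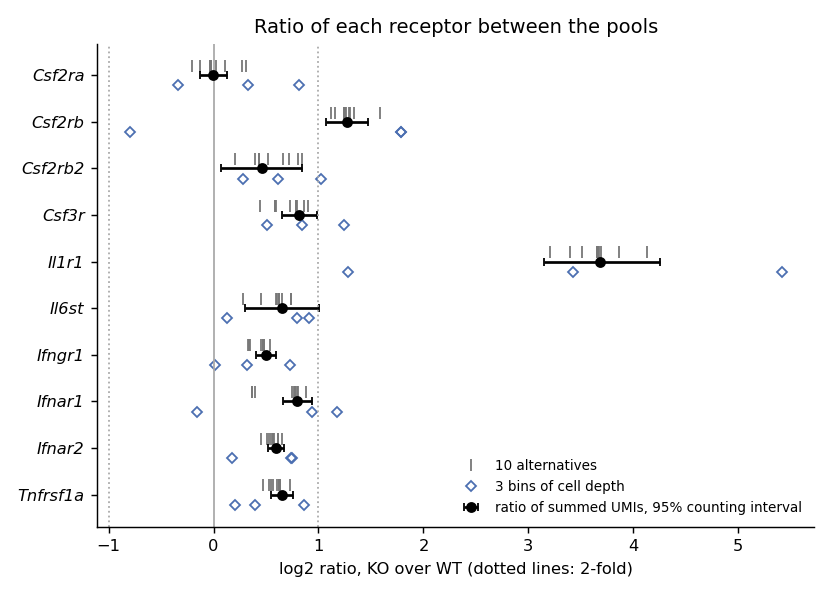
Log2 ratio of KO over WT for each receptor (black, with 95% counting intervals), the same under 10 other ways of processing (grey ticks) and within 3 bins of cell depth (blue diamonds). *Il1r1* lies to the right of 1 throughout, from 1.28 to 5.41, while *Csf2rb* reaches -0.80 in 1 bin, *Ifnar1* -0.16 in 1 bin and *Csf2ra* lies on both sides of 0.

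More of these receptors were detected per cell in the pool labelled KO. This count includes *Il1r1*, which was picked for its rise and was found in 3 WT and 35 KO cells at 20000 UMIs. A count over the other 9 was not made. At 20000 UMIs the median was 2 of the 10 in WT and 3 in KO cells. None was found in 15 WT cells (5.79%, exact interval 3.28 to 9.37%) and in 4 KO cells (1.71%, 0.468 to 4.32%). A count of 5 or more was found in 26 of 259 WT cells (exact interval 6.66 to 14.4%) and 44 of 234 KO cells (14.0 to 24.4%), and without the oocyte-marker cells the shares were 11.1% and 19.0%. The receptors showed little correlation with one another from cell to cell. Over the 45 pairs of receptors the correlation of log2(UMIs per 20000 + 1) across cells had a median of 0.00 in WT and 0.01 in KO, ranging from -0.12 to 0.19 and from -0.08 to 0.14, and pairs in a cell share its depth.

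**Figure D4:**
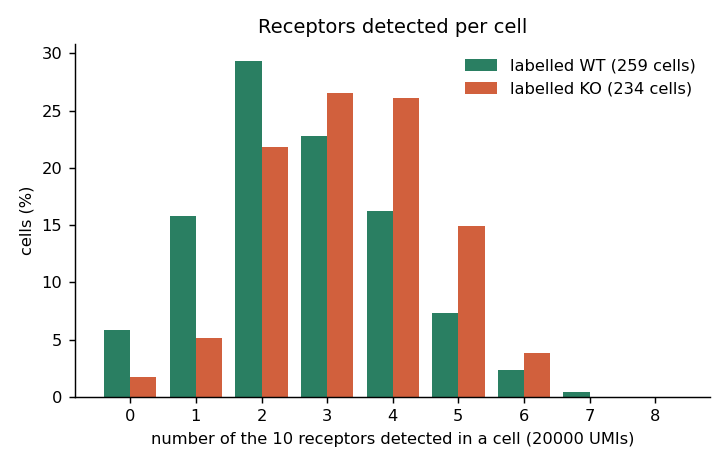
Share of cells (%) by the number of the 10 receptors detected in a cell at 20000 UMIs, for 259 WT and 234 KO cells. The most common number, with *Il1r1* counted, is 2 in WT and 3 in KO cells.

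No gene followed any receptor closely from cell to cell. Among genes averaging 0.5 UMI per cell or more, the 3 most like *Il1r1* were *Hdac11*, *Med12* and *Pnpla6*, with mean within-genotype correlations of 0.23, 0.22 and 0.21 over 259 WT and 234 KO cells. Over all 10 receptors the highest such value was 0.24, for *Zfp667* with *Csf2rb2*. In counts this sparse such values are no finding.

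Other genes of these pathways were counted list by list, to be read against the 6.98% of all genes that were 2-fold higher and the 7.94% that were 2-fold lower. Of 7 partner chains in the table, 1 was at least 2-fold higher (*Il3ra*) and 1 lower (*Il6ra*) in KO, with a median log2 ratio of 0.00. Of 23 other receptors 4 were higher and 3 lower, with a median of 0.42. The higher ones were *Il18r1* (1.96) and *Il18rap* (1.83), the 2 chains for IL-18, *Flt3* (1.03), a receptor of early progenitors, and *Tgfbr1* (1.02). *Lepr* (-1.92), *Epor* (-1.63), the erythropoietin receptor, and *Tgfbr3* (-1.17) were lower. Without the oocyte-marker cells *Lepr* stood at -0.39. For *Epor* 199 of 460 WT UMIs came from 1 cell, and its ratio was -1.10 without the top cell of each pool. *Flt3* was at 0.94 without its top cells and, in the deposited normalization less its median over all genes, at 0.69, where *Tgfbr1* was at 0.95. Of 20 ligands 5 were in the table, and the 2 past 2-fold were the subunits of IL-27, *Ebi3* (1.13) and *Il27* (-1.39).

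Downstream of the JAK-coupled receptors, 11 of 12 JAK and STAT genes had an interval above 1 and none below, where 39.2% of all genes were above and 35.7% below, with a median of 0.53, although only *Tyk2* (1.33), the kinase bound to *Ifnar1*, passed 2-fold. Of 19 inhibitors of the pathway 3 were higher and none lower by 2-fold, namely *Socs3* (1.96), the feedback inhibitor of gp130 and the G-CSF receptor, *Socs7* (1.26) and *Cbl* (1.08). *Socs7* was at 0.65 in the deposited normalization less its median, and *Cbl* at 0.96 without its top cells. Of 14 STAT targets 5 were higher, among them *Socs3*, *Pim1* (1.62), *Bcl3* (1.53) and *Pim2* (1.51), and *Myc* (-1.37) was lower. Of 31 interferon targets 6 were higher and none lower by 2-fold, with a median of 0.63, led by *Oas2* (2.54), *Irf7* (1.97), *Ifit3* (1.58) and *Irf8* (1.48). For *Ifit3* 52 KO UMIs came from 1 cell, and without the top cells 31 WT and 47 KO UMIs gave 1.01. *Irf8* was at 2.15 without its top cells, where the WT one held 153 of 336 UMIs. *Oas2* and *Ifit3* belong to families of near copies, and their values are uncertain where reads could be divided among them.

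On the NF-kB side the list medians ran from 0.08 to 0.31, and from -0.02 to 0.21 in the deposited normalization less its median. Of 23 IL-1 and TNF adaptors 2 were higher, *Tollip* (1.23) and *Irak3* (1.08), both of which restrain IL-1 signalling, and 1 was lower, *Tab3* (-2.18), for which 40 of 96 WT UMIs came from 1 cell. In the deposited normalization less its median *Tollip* was at 0.82 and *Irak3* at 0.46, both under 2-fold. The adaptors' median was 0.31. Of 14 NF-kB genes 3 were higher, *Rel* (2.04), *Bcl3* and *Nfkb2* (1.28), with a median of 0.08. For *Rel* 41 of 91 WT and 76 of 281 KO UMIs came from 1 cell of each pool, and its ratio was 2.44 without those cells and 1.23 in the deposited normalization less its median, where *Bcl3* was at 0.85 and *Nfkb2* at 0.87. Of 16 NF-kB targets 2 were higher, *Nfkb2* and *Tnip1* (1.0), none was lower by 2-fold, and the median was 0.13. *Tnip1* was at 0.88 without its top cells and at 0.72 in the deposited normalization less its median.

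**Figure D5:**
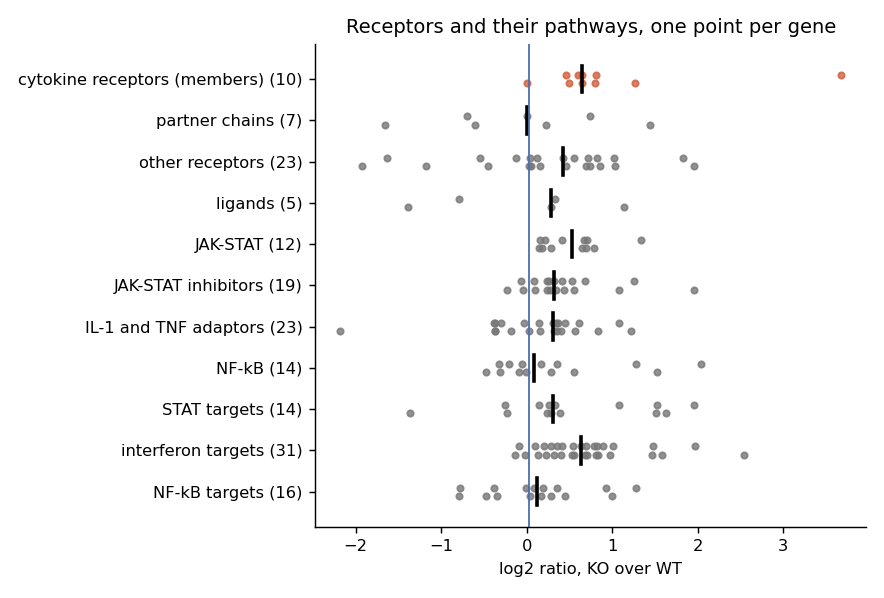
Log2 ratio of KO over WT for each gene of the pathway lists that is in the table (number in brackets), with black bars for list medians and the blue line at the median of all genes, 0.02. The receptors' median of 0.65 is close to that of the interferon targets, 0.63, while partner chains (0.00) and NF-kB genes (0.08) lie near the line.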

How the data were processed

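Single HSCs were barcoded with oligo-dT primers. The authors aligned reads to the mouse mm9 transcriptome, collapsed them by UMI, kept genes with a mean count above 0.2, and deposited log2(normalized UMIs + 1) for 586 cells, normalized by a factor per cell whose method is not given in the sources used here. UMI counts were recovered from the deposited log2 values by dividing each cell by its smallest step, and 100% of values were whole within 0.01. Cells with 2000 genes and 20000 UMIs were kept and summed per genotype, since columns name no library (labels give 4 batches per genotype, which cells cannot be assigned to). Levels are CPM, and log2 ratios carry Clopper-Pearson counting intervals and levels Poisson intervals at 95%, with counts under 3 set to 3. Cells were thinned to 20000 UMIs for shares. Cells had been picked by hand, and no doublet caller was run. Python 3.11.15, numpy 2.4.6, scipy 1.17.1, pandas 2.3.3 and Biopython 1.88 were used.

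Named are the 10 members, *Med23*, *Zp3*, the 3 genes most like a member and, per pathway list, up to 4 genes each way past 2-fold with an interval beyond 1. Marker genes, *Tnfrsf1b*, *Ifngr2* and *Il1rap* were named after their values were seen. So were the genes compared between cells with and without *Il1r1*, and those near a receptor on the chromosome. Members and lists were chosen with earlier results of these data known. RefSeq GRCm38.p6 gave only promoters and gene order. Alternatives were other cell limits, thinning, scalings, the authors' values, means over cells, leaving out top or oocyte-marker cells, and depth bins. Leaving out the top cells of a pathway gene, and the deposited values less their median, were added after seeing the data.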

Additional observations from a re-analysis of the deposited data

How the results depend on the processing

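Counts of 2 receptors at least 2-fold higher, *Csf2rb* and the *Il1r1* picked for its rise, and 0 lower held under all 10 alternatives outside the depth bins. The receptors' median log2 ratio (0.65) was 0.48 in cells thinned to 20000 UMIs and 0.49 without oocyte-marker cells, lay from 0.56 to 0.70 under the other alternatives outside the bins, and was 0.77, 0.27 and 0.85 in the bins. *Il1r1* (3.68) ranged from 3.21 with the authors' values, uncorrected, to 4.13 without the top cells, and was 1.28 in cells of 20000 to 40000 UMIs and 5.41 in those of 40000 to 80000. *Csf2rb* reversed to -0.80 in cells of 40000 to 80000 UMIs, where 98 WT and 63 KO UMIs were counted, and the cause was not tested. Of 100 receptor ratios outside the bins 79 moved by less than their counting interval and 21 by more, none reversing. In the bins, 22 of 30 moved. The authors' scaling shifted the median of all genes to -0.14. Less that shift, *Il1r1* was at 3.35 and the receptors' median at 0.70. Of 30 medians of pathway lists under 3 alternatives 24 stayed within their counting range and 6, all with the authors' scaling, moved beyond it. For pathway genes past 2-fold, 16 of 64 values moved beyond the interval and none reversed when the top cells were left out or the authors' scaling was used less its median. No paired analysis was possible because cells are named by genotype alone and nothing was tested. Leaving out a replicate could not be run for the same reason.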

Other observations

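The chromosomal neighbours of the receptors, taken in RefSeq order on GRCm38.p6, were looked at after the values were seen. *Il1r1* stands in a run of IL-1 family receptor genes on chromosome 1, in which *Il18r1* and *Il18rap* are the third and the fourth gene after it. All 3 were higher in KO cells, at log2 ratios of 3.68, 1.96 and 1.83, though *Il1r1* was picked for its rise. *Map4k4*, the second gene before *Il1r1*, stood at 0.68. *Il1r2*, *Il1rl2* and *Il1rl1* of the same run are not in the expression table. *Ifnar2*, *Il10rb*, *Ifnar1* and *Ifngr2* follow each other on chromosome 16, and their ratios were 0.60, 0.04, 0.80 and 0.23. *Ddx4*, a germ cell helicase gene, is the second gene after *Il6st* on chromosome 13 and had a ratio of 3.71, against 0.65 for *Il6st*. Other neighbours were lower in KO cells, among them *Vwf* (-4.47), the third gene after *Tnfrsf1a*, and *Ift27* (-0.92), the fourth gene before *Csf2rb*.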
